A study of Mus musculus with 10 samples.

Results

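Macrophage transcripts in the epidermis were followed through 10 genes, namely Adgre1, Csf1r, C1qa, C1qb, C1qc, Cd68, Mrc1, Cd14, Tyrobp and Fcer1g. They were chosen by name as genes of macrophages, and all 10 were found, each as 1 probe set with a single symbol, among 19938 genes named so and 35556 probe sets in all. Epidermis of 3-day-old mice was separated from the dermis with dispase (8 mg/ml, 1 h at 37 °C), and its total RNA was hybridised to 10 arrays, 1 per mouse. Of these, 5 arrays held epidermis of ILK-deficient mice (K14Cre; Ilk f/f) and 5 that of ILK-expressing mice (K14Cre; Ilk f/+), to ask how the loss of integrin-linked kinase from keratinocytes changes the transcripts of the tissue. Both genotypes carried 1 copy of the KRT14-cre transgene, in which the keratin 14 promoter drives Cre in basal keratinocytes, and the ILK-expressing mice also carried 1 floxed Ilk allele. Macrophages do not use that promoter. The animals were littermates, and the number of litters on the arrays is not given in the sources used here.

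Macrophages are phagocytes that live in most tissues, where they take up dead cells and microbes and take part in repair. In skin they lie mainly in the dermis, whereas the resident phagocyte of the epidermis is the Langerhans cell, which depends on the same CSF1 receptor and shares the F4/80 antigen, TYROBP and FCER1G with macrophages. Around birth, precursors of Langerhans cells settle in the mouse epidermis. Csf1r, Adgre1, Tyrobp and Fcer1g therefore do not mark macrophages alone, and none of the 10 genes is read here as doing so. In RNA of whole tissue, more cells of a type and more RNA per cell cannot be told apart.

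Of the 10 genes, 5 (C1qb, C1qc, Cd68, Mrc1 and Fcer1g) had a promoter window in RefSeq (build GRCm38.p6, 250 bases before to 50 after the start site the table gives). The windows of 3 are shown because C1qb and C1qc are neighbours that varied together on the arrays and because the Mrc1 window held more matches than the others. Capitals mark GAGGAA, the core letters bound by PU.1, the transcription factor of myeloid cells, or its reverse complement TTCCTC.
C1qb, chr4:136886151-136886450, minus strand: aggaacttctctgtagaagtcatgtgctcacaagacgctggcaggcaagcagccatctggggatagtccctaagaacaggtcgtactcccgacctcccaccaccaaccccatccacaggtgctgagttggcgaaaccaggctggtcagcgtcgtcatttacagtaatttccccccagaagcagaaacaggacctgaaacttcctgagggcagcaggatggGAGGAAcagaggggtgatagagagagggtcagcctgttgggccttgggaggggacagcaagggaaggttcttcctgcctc
C1qc, chr4:136892865-136893164, minus strand: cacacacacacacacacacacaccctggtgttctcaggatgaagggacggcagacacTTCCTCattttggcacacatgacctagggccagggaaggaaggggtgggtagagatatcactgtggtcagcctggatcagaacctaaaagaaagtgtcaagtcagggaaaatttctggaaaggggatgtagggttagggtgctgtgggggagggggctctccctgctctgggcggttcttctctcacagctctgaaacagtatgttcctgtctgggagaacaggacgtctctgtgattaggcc
Mrc1, chr2:14229164-14229463, plus strand: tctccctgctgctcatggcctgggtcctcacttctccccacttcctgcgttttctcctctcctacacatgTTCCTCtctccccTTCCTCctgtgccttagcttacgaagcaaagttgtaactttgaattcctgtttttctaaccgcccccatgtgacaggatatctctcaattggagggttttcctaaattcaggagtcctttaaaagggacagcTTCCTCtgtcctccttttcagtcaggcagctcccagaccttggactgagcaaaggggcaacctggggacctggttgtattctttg
The letters occurred on either strand in 4 of the 5 windows, once in C1qb and C1qc, 2 times in Cd68 and 3 times in Mrc1, and were not in the Fcer1g window. Of all 32851 promoter windows of 300 bases, 28.3% held them. TATAAA, the letters of a TATA box, was in 0 of the 5 windows and in 13.6% of all windows, on either strand. A match of letters describes the window and is not a measured binding site.

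Values are log2 expression values as deposited, and a difference of 1 is a 2-fold change. Array medians were 7.07 to 7.17. A probe set was tested where at least 5 arrays reached a linear value of 50 (5.64 on the log2 scale), which kept 32046 probe sets and all 10 macrophage genes. Keratinocyte genes had high values in both genotypes, with Krt1, a keratin of the suprabasal layers, at 14.05 in ILK-deficient and 14.12 in ILK-expressing epidermis. The probe set of Ilk itself averaged 8.94 in ILK-deficient and 9.17 in ILK-expressing epidermis (log2 fold change -0.23, adjusted p = 0.253 from limma). Cre excision leaves part of the transcript, which the single value of a probe set pools with the removed exons, so it checks the genotype labels little. From single exons on the arrays, the paper reports substantially lower signal of removed exons in ILK-deficient epidermis. It also reports much less ILK protein there by immunoblot. Exon values were not examined here. With 5 arrays against 5, the exact permutation test (two-sided) cannot give a p below 0.00794.

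Of the 10 macrophage genes, 1 was higher in ILK-deficient epidermis, Adgre1, and none was lower. Here and below, a gene was called where limma gave an adjusted p (Benjamini-Hochberg, over the 32046 probe sets) under 0.05. Among all probe sets, 2.81% were called higher and 0.97% lower, 3.78% in all. These shares cover probe sets with no gene symbol too. Where probe sets were averaged per gene, 1220 of 18121 genes were called higher, 3 of the 10 macrophage genes among them. Without adjustment, 4 of the 10 genes were higher at a limma p under 0.05 and none lower, against 10.2% and 5.65% of all probe sets. Mrc1 is 1 of these 4, and it was tested only because its ILK-deficient values reached the limit for testing. The one-way ANOVA named in the study's methods called 1 of the 10 after adjustment, against 2.14% of all probe sets in either direction. The mean difference was above 0 for 9 genes, against 51% of all probe sets, and below 0 for Cd68. The median log2 fold change of the 10 genes was 0.19, against 0.00311 over all probe sets tested. Where 50 was asked of all arrays, Mrc1 was not tested. Of the 9 genes left, 8 then had a mean difference above 0, and their median was 0.187.

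**Figure D1:**
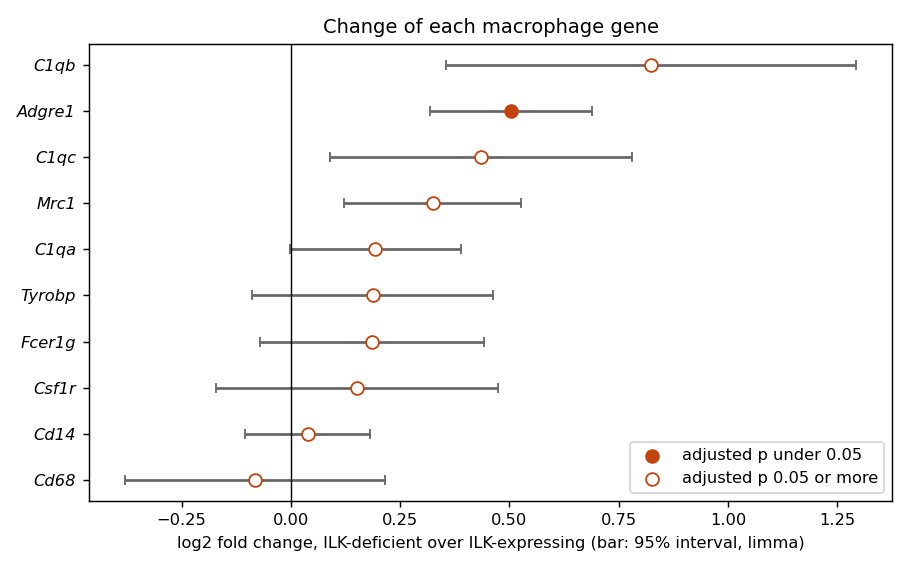
Log2 fold change (ILK-deficient over ILK-expressing, x axis) of the 10 macrophage genes, with 95% intervals from limma as bars and a filled point at an adjusted p under 0.05. Only Adgre1 is filled, and the intervals of C1qb, Adgre1, C1qc and Mrc1 lie above 0, that of Mrc1 against ILK-expressing values with a mean below the limit for testing.

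Adgre1 encodes F4/80, an adhesion G-protein-coupled receptor that is the classical surface marker of mouse macrophages and is also made by Langerhans cells. It was at 7.27, 7.49, 7.26, 7.17 and 7.52 in ILK-deficient replicates 1 to 5, against 6.80, 6.76, 6.94, 6.95 and 6.74 in ILK-expressing replicates 1 to 5. Every ILK-deficient array lay above every ILK-expressing array. Of the 10 genes this held for Adgre1 alone, and the reverse for none, against 4.37% and 1.96% of all probe sets tested, 6.33% in either direction. It averaged 7.34 ± 0.153 in ILK-deficient and 6.84 ± 0.101 in ILK-expressing epidermis (SD over the 5 arrays of each). Adgre1 was 1.42-fold higher, a log2 fold change of 0.50 with a standard error of 0.0839 (limma, adjusted p = 0.0107). The exact two-sided permutation test gave p = 0.00794. The call held when each array was left out in turn, with adjusted p values between 0.0142 and 0.0293. On the arrays whose sample code has an unprimed D in the labels (4 ILK-deficient and 3 ILK-expressing), the log2 fold change was 0.46 and limma gave an adjusted p = 0.0896. The 1 ILK-deficient array with a primed code was at 7.52 and the 2 such ILK-expressing arrays were at 6.95 and 6.74; what the codes stand for is not given in the sources used here.

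Csf1r encodes the receptor for CSF1 and interleukin 34, on which macrophages and Langerhans cells depend for survival. Its values overlapped widely, at 8.79, 8.86, 8.88, 8.53 and 9.12 in ILK-deficient replicates 1 to 5, against 8.58, 8.25, 8.91, 8.70 and 8.96 in ILK-expressing replicates 1 to 5. The second highest of all 10 values belonged to an ILK-expressing array. The log2 fold change was 0.15 (95% interval -0.17 to 0.47, adjusted p = 0.744 from limma). Differences in either direction lie within that interval.

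C1qa, C1qb and C1qc encode the A, B and C chains of C1q, the recognition molecule of the classical complement pathway, which in most tissues is made by macrophages. In RefSeq (GRCm38.p6) the genes neighbour each other on chromosome 4. C1qb had the largest mean difference of the 10 genes. It was at 8.46, 9.17, 8.86, 8.73 and 8.40 in ILK-deficient replicates 1 to 5, against 7.95, 7.91, 8.56, 7.69 and 7.38 in ILK-expressing replicates 1 to 5. The genotypes overlapped only through ILK-expressing replicate 3, which lay above ILK-deficient replicates 1 and 5. C1qb averaged 8.72 ± 0.314 in ILK-deficient and 7.90 ± 0.431 in ILK-expressing epidermis (SD over the 5 arrays of each). The difference was 1.77-fold, or 0.82 on the log2 scale (95% interval 0.35 to 1.29), and missed the threshold (limma, adjusted p = 0.0622). The exact two-sided permutation test gave p = 0.0238. With each array left out in turn, the log2 fold change was 0.69 to 0.99 and the limma adjusted p 0.0224 to 0.142. It passed only without ILK-expressing replicate 3, the array that made the overlap. On the arrays with an unprimed D code it was 0.67 (limma, adjusted p = 0.243). C1qb was also the only one of the 10 genes at 1.5-fold or more, the size that the study's methods set together with an unadjusted p under 0.05.

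C1qc and C1qa had smaller differences and lower values, nearer to the limit for testing. C1qc was at 6.23, 7.01, 6.45, 6.58 and 6.43 in ILK-deficient replicates 1 to 5, against 6.17, 6.17, 6.46, 5.85 and 5.86 in ILK-expressing replicates 1 to 5. For C1qc the log2 fold change was 0.43 (95% interval 0.09 to 0.78, adjusted p = 0.184 from limma). C1qa was at 6.23, 6.48, 6.32, 6.37 and 6.10 in ILK-deficient replicates 1 to 5, against 6.09, 6.19, 6.29, 5.96 and 6.00 in ILK-expressing replicates 1 to 5. Its log2 fold change was 0.19 (adjusted p = 0.325 from limma), with an interval that reached from -0.0028 to 0.39. The chains shared their extremes. ILK-deficient replicate 2 and ILK-expressing replicate 3 had the highest value of their genotype for each of the 3 genes.

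**Figure D2:**
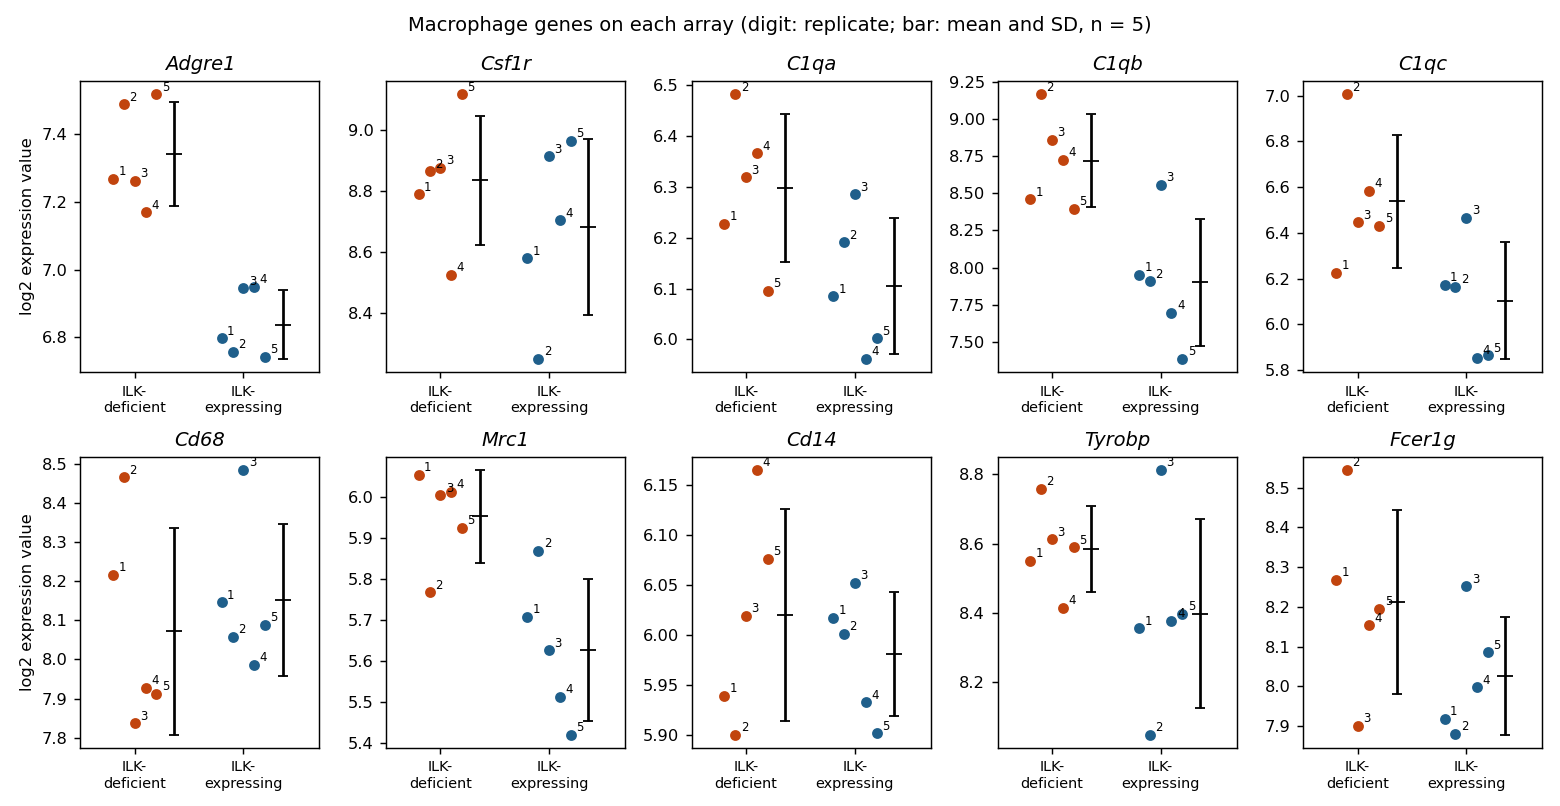
Log2 expression value (y axis, own scale for each gene) of the 10 macrophage genes on 5 ILK-deficient and 5 ILK-expressing arrays, with replicate numbers beside the points and the mean and SD of each genotype as a bar. The genotypes are apart for Adgre1, with 7.17 as the lowest ILK-deficient and 6.95 as the highest ILK-expressing value, and overlap for the other 9 genes.

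Tyrobp and Fcer1g encode small membrane adaptors that carry an ITAM, the motif through which activating receptors without a signalling tail of their own recruit the kinase SYK. TYROBP serves receptors such as TREM2, and FCER1G is the shared gamma chain of Fc receptors, used by mast cells as well. Tyrobp was at 8.55, 8.76, 8.61, 8.41 and 8.59 in ILK-deficient replicates 1 to 5, against 8.36, 8.05, 8.81, 8.38 and 8.40 in ILK-expressing replicates 1 to 5. The highest of the 10 values was that of ILK-expressing replicate 3, while the other 4 ILK-expressing arrays lay below all ILK-deficient ones. The log2 fold change was 0.19 (95% interval -0.09 to 0.46, adjusted p = 0.569 from limma). Fcer1g was at 8.27, 8.54, 7.90, 8.15 and 8.20 in ILK-deficient replicates 1 to 5, against 7.92, 7.88, 8.25, 8.00 and 8.09 in ILK-expressing replicates 1 to 5. ILK-deficient replicate 3 lay among the lowest ILK-expressing arrays. The log2 fold change was 0.19 (95% interval -0.07 to 0.44, adjusted p = 0.530 from limma).

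Mrc1 encodes the mannose receptor CD206, an endocytic receptor of tissue-resident macrophages, including those of the dermis. It was near the limit for testing, at 6.05, 5.77, 6.00, 6.01 and 5.92 in ILK-deficient replicates 1 to 5, against 5.71, 5.87, 5.63, 5.51 and 5.42 in ILK-expressing replicates 1 to 5. Of the ILK-expressing values, 3 lay below 5.64, the limit itself. The genotypes overlapped only through ILK-deficient replicate 2 and ILK-expressing replicate 2. The mean of the ILK-expressing arrays, 5.63, also lay below the limit, so Mrc1 was tested only because its ILK-deficient values, with a mean of 5.95, reached it. It did not pass (limma, adjusted p = 0.0866), and the size of the difference is not read from values so near the limit. The order of the arrays differed from that of C1q, since ILK-deficient replicate 2, the highest for the 3 C1q chains, was the lowest for Mrc1.

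Cd68 encodes a heavily glycosylated protein of the late endosomes of phagocytes, and Cd14 the co-receptor that hands bacterial lipopolysaccharide to TLR4. Cd68 was at 8.22, 8.47, 7.84, 7.93 and 7.91 in ILK-deficient replicates 1 to 5, against 8.15, 8.06, 8.48, 7.99 and 8.09 in ILK-expressing replicates 1 to 5. It was the only one of the 10 genes with a mean below that of ILK-expressing epidermis (log2 fold change -0.08, 95% interval -0.38 to 0.22, adjusted p = 0.887 from limma), and its difference was 0.00164 without ILK-expressing replicate 3. Cd14 kept to a narrow range near the limit for testing, 5.90 to 6.16 in ILK-deficient and 5.90 to 6.05 in ILK-expressing epidermis, with a log2 fold change of 0.04 (95% interval -0.10 to 0.18, adjusted p = 0.888 from limma).

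In each genotype a single array stood high in most of these genes at once. The other arrays lay above the mean of their genotype for 2 to 5 genes. Of 45 pairs of the 10 genes, 30 had deviations that correlated above 0, with a median of 0.302 over all pairs (Pearson). ILK-expressing replicate 3 had the highest value of its genotype for 7 of the 10 genes and lay above the mean of its genotype for 9. ILK-deficient replicate 2 was the highest of its genotype for 6 genes and the lowest for 2, Mrc1 and Cd14. Averaged over the 10 genes, the log2 value was 7.40 to 7.64 in ILK-deficient and 7.09 to 7.44 in ILK-expressing epidermis. This average includes Mrc1, which was tested only because its ILK-deficient values reached the limit, and it was not taken without Mrc1. Only ILK-expressing replicate 3, at 7.44, lay within the range of the ILK-deficient arrays, and the other 4 ILK-expressing arrays lay between 7.09 and 7.17. The fold changes of single genes are read against this spread, since 9 of 10 genes overlapped between genotypes.

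**Figure D3:**
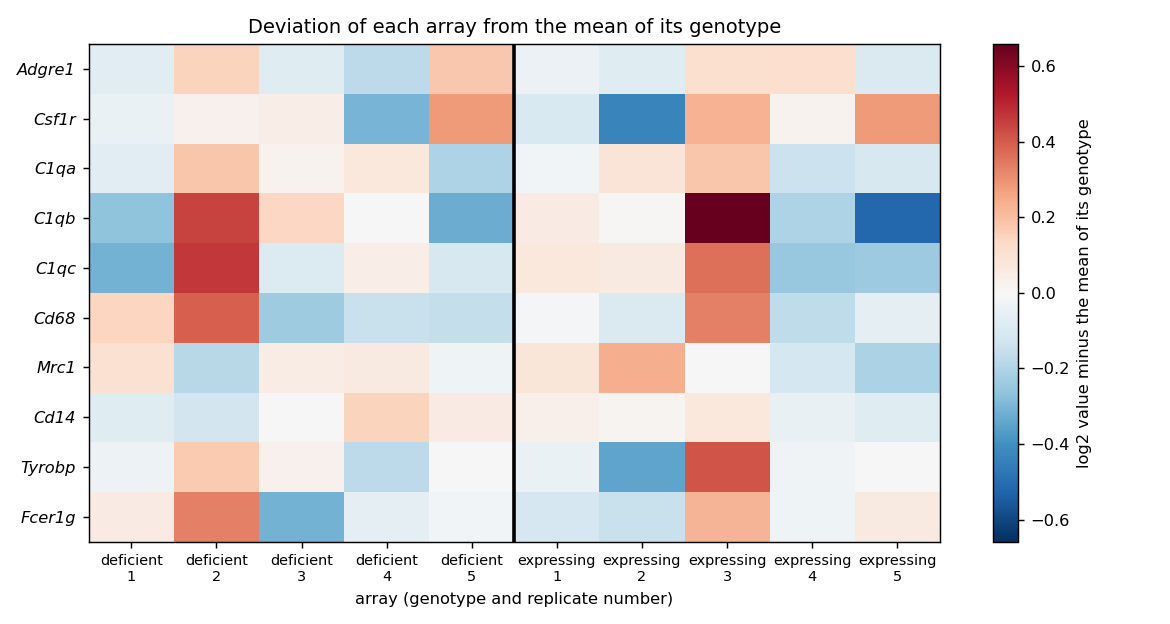
Deviation of each array (columns, genotype and replicate number) from the mean of its genotype for the 10 macrophage genes (rows), in log2 units, red above and blue below. The columns of ILK-deficient replicate 2 and ILK-expressing replicate 3 are mostly red, which corresponds to the highest value of the genotype in 6 and 7 of the 10 genes.

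Other genes of macrophages and monocytes rose in part, while several stayed near or below the limit for testing. Of 28 listed genes 25 had a probe set and 22 were tested. Of these, 5 rose in ILK-deficient epidermis and none fell (22.7% higher, against 2.81% of all probe sets). The 2.81% covers probe sets with no gene symbol too. Where probe sets were averaged per gene, 1220 of 18121 genes were higher. The list was chosen with earlier results of these data known. The ANOVA called none of the 22 after adjustment, against 2.14% of all probe sets. At an unadjusted limma p under 0.05, 6 were higher and 1 was lower, against 10.2% and 5.65% of all probe sets. Mertk, a receptor kinase for the uptake of dying cells, rose by 0.77 (adjusted p = 0.025 from limma). Cybb, the catalytic subunit of the phagocyte NADPH oxidase, was at 7.22 in ILK-deficient and 6.74 in ILK-expressing epidermis (log2 fold change 0.48, adjusted p = 0.0391). Ms4a7, a membrane protein of macrophages, rose by 0.48 (adjusted p = 0.0409), and Lyz2, the lysozyme of myeloid cells, by 0.45 (adjusted p = 0.0375). The near-identical Lyz1, with which Lyz2 may share probes, was at 0.09 (adjusted p = 0.827). The fifth that rose was Ms4a6d, a relative of Ms4a7 (0.32, adjusted p = 0.0391), named after its values were seen. Cx3cr1, the fractalkine receptor of monocytes and macrophages, and Clec4a1, a myeloid lectin, were the most abundant that did not pass, at 0.18 (adjusted p = 0.582) and 0.16 (adjusted p = 0.641). Folr2, Vsig4 and Cd209f did not reach the limit for testing on enough arrays, and Cd163, a scavenger receptor of tissue macrophages, was at 5.81 in ILK-deficient and 5.89 in ILK-expressing epidermis (adjusted p = 0.626); these 4 were named after their values were seen.

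The ligands of CSF1R, receptor subunits for the related CSF2 and transcription factors of myeloid cells were listed together and did not share a direction. Of 13 tested, 1 was higher and none was lower (7.69% higher, against 2.81% of all probe sets). Runx1, a factor of blood cells that hair follicle keratinocytes also use, rose by 0.44 (adjusted p = 0.0236 from limma), while Cebpa, at 0.0002, and Maf, at -0.13, did not pass (adjusted p = 1 and 0.906). A further 4 genes were named after their values were seen. Il34, the ligand that keratinocytes make for Langerhans cells, was at 8.93 in ILK-deficient and 9.30 in ILK-expressing epidermis (log2 fold change -0.37, adjusted p = 0.342). Csf1, the other ligand, was at 7.39 in ILK-deficient and 7.20 in ILK-expressing epidermis (0.19, adjusted p = 0.344). Spi1, which encodes PU.1, was at 7.76 in ILK-deficient and 7.92 in ILK-expressing epidermis (-0.16, adjusted p = 0.853). Nr4a1, an early response gene that patrolling monocytes need, had the widest mean difference of the list, at 9.93 in ILK-deficient and 8.43 in ILK-expressing epidermis, and did not pass (adjusted p = 0.141).

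Among 20 tested genes for receptors, adaptors and enzymes of ITAM signalling and its control, 1 was higher and none was lower. That is 5% higher, against 2.81% of all probe sets. Fcgr2b, the inhibitory Fc gamma receptor, was at 7.03 in ILK-deficient and 6.46 in ILK-expressing epidermis (log2 fold change 0.57, adjusted p = 0.0324 from limma). Its own tail carries an inhibitory motif, and it does not need FCER1G. Ptpn6, a phosphatase that opposes ITAM signals, at 0.02, and Plcg2, a phospholipase downstream of SYK, at 0.39, did not pass (adjusted p = 0.946 and 0.123). Of 20 tested complement genes, 1 was higher and none was lower (5% higher, against 2.81% of all probe sets). C3ar1, the receptor for the C3a fragment, was at 7.96 in ILK-deficient and 7.19 in ILK-expressing epidermis (0.77, adjusted p = 0.0167). Calr, a chaperone that binds C1q on dying cells, at -0.11, and C1qbp, a mitochondrial protein named for its binding to C1q, at -0.11, did not pass (adjusted p = 0.473 and 0.637). The median of the complement list was 0.01.

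CD14's partners and the toll-like receptors gave no call in 20 tested genes by limma or by the adjusted ANOVA. Without adjustment, limma had 1 of them higher and 3 lower, against 10.2% and 5.65% of all probe sets. Traf6 and Myd88, adaptors downstream of the toll-like receptors, were at -0.18 (adjusted p = 0.298) and -0.14 (adjusted p = 0.546). In the list of lysosomal and scavenger receptor genes, in whose company CD68 belongs, 3 of 21 tested were higher and 1 was lower. That is 14.3% higher, against 2.81% higher and 0.97% lower of all probe sets. Hexa, a subunit of the lysosomal hexosaminidase, rose by 0.61 (adjusted p = 0.00744 from limma), Lgmn, an asparaginyl protease, by 0.53 (adjusted p = 0.0404), and Ctss, the cathepsin of antigen-presenting cells, by 0.38 (adjusted p = 0.0394). Lgals3, galectin-3, which keratinocytes and macrophages both make, fell by 0.37 (adjusted p = 0.0158). Lamp2 and Lamp1, membrane proteins of all lysosomes, were at 0.05 (adjusted p = 0.834) and -0.09 (adjusted p = 0.671).

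Markers of other cells were measured on the same arrays. Of 13 tested pan-leukocyte genes, limma and the ANOVA called none, and none had an unadjusted p under 0.05 by either. Without adjustment, limma had 10.2% of all probe sets higher and 5.65% lower. The mean log2 value of that list was 7.68 to 7.94 in ILK-deficient and 7.62 to 8.00 in ILK-expressing epidermis. Laptm5, an abundant lysosomal membrane protein of leukocytes, was at 0.0064 (adjusted p = 0.994). Of 16 tested Langerhans and dendritic cell genes, 1 was higher and none was lower (6.25% higher, against 2.81% of all probe sets). It was Id2, a regulator that Langerhans cells need and keratinocytes also express (0.39, adjusted p = 0.0273 from limma). The summed linear value of the list was 11820 to 13880 in ILK-deficient and 10510 to 15220 in ILK-expressing epidermis. The median log2 fold change of its tested genes was -0.07. Epcam, shared by Langerhans cells and follicle keratinocytes, was at 0.22 (adjusted p = 0.422), and H2-Ab1, a class II chain, at -0.10 (adjusted p = 0.874). Cd207, the langerin of mature Langerhans cells, was at 6.30 in ILK-deficient and 6.43 in ILK-expressing epidermis (adjusted p = 0.748) and was named after its values were seen.

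Macrophages are abundant in the dermis, so dermal genes are given beside these results. All 9 tested fibroblast genes had a mean difference above 0, with a median of 0.21. Only 1 passed the test (11.1% higher, against 2.81% of all probe sets), Thy1, which T cells make too (0.39, adjusted p = 0.0421 from limma). Their summed linear value was 4007 to 7184 in ILK-deficient and 1929 to 5864 in ILK-expressing epidermis, most of it from Dcn, decorin. Without that gene it was 1062 to 1439 in ILK-deficient and 896 to 1129 in ILK-expressing epidermis. Col1a2, a chain of type I collagen, was at 8.03 in ILK-deficient and 7.63 in ILK-expressing epidermis, without overlap of the genotypes (0.40, adjusted p = 0.0777), and Dcn was at 0.77 (adjusted p = 0.467). The part of dermal cells in the values of Adgre1, C1qb and Mrc1 was not tested.

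**Figure D4:**
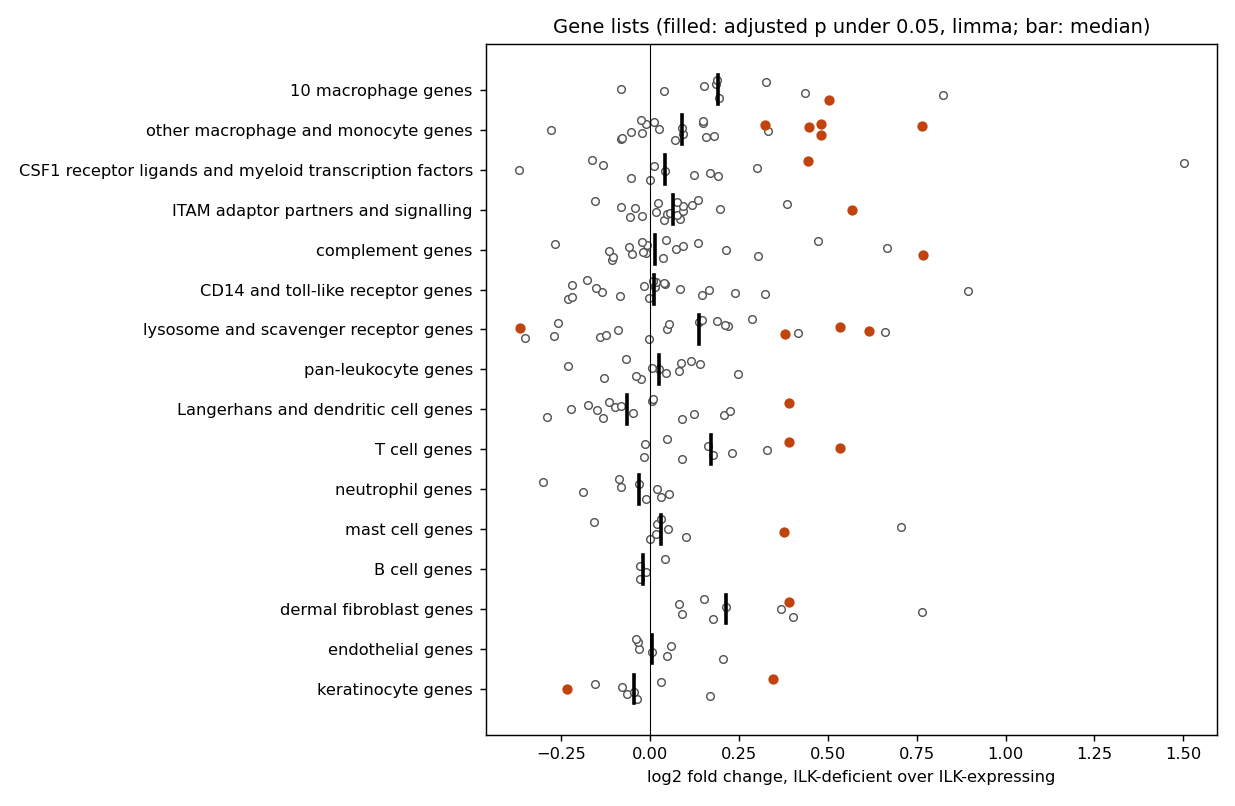
Log2 fold change (ILK-deficient over ILK-expressing, x axis) of the tested genes of 16 lists (rows), 1 point per gene, filled at an adjusted p under 0.05 from limma, with a bar at the median of each list. The bar of the 10 macrophage genes stands at 0.19 and that of the other macrophage and monocyte genes at 0.09. The bars of the dermal fibroblast, T cell and lysosome lists stand at 0.21, 0.17 and 0.14. That of the pan-leukocyte genes is at 0.02 and that of the Langerhans and dendritic cell genes at -0.07.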

How the data were processed

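Total RNA of dispase-separated epidermis was hybridised to GeneChip Mouse Gene 1.0 ST Arrays, 5 ILK-deficient and 5 ILK-expressing, 1 mouse each. The authors deposited 1 log2 value per probe set and array, background-adjusted and quantile-normalized. GC-RMA and RMA both appear in the study's methods, and which of them gave these values is not given in the sources used here. Groups were taken from the sample titles. Probe sets were named with the platform annotation, a gene being represented by its probe set with a single symbol and the highest mean.

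The deposited values were compared in R 4.3.3 with limma 3.58.1 (lmFit, eBayes; no block or covariate), for probe sets at 50 or more on at least 5 arrays, with Benjamini-Hochberg adjustment over 32046 probe sets. Single genes were also compared by the exact permutation test over 252 splits. The number of arrays limits the precision. Other filters, scalings, tests, blocks, a term for the sample code, another probe set rule and fewer arrays were tried as alternatives. The 10 genes and 15 further lists were chosen with earlier results of these data known. From each further list, up to 4 genes past the test with the largest change and up to 2 abundant genes that did not pass were named. A gene of the pan-leukocyte list that this rule names is not reported here.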

Additional observations from a re-analysis of the deposited data

How the results depend on the processing

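Adgre1 kept its direction under all 22 alternatives (log2 fold change 0.46 to 0.55) and its call under 19. The alternatives that lost it were the arrays with an unprimed D code alone (adjusted p = 0.0896 from limma), the ANOVA with a 1.5-fold limit, which 1.42-fold does not reach and which called C1qb instead, and the replicate block (adjusted p = 0.0689). Between arrays of the same replicate number, the deviations from the genotype means correlated at -0.296 to 0.113. Taken from means of 5 arrays, such correlations cannot decide whether these arrays share more than the number. Of the 10 genes, 1 was called higher in the comparison as reported, 0 with the replicate block, 0 on the unprimed D arrays, 2 after a further quantile normalization (with Mrc1), 2 with the sample code as a term (with C1qb) and 3 where probe sets were averaged per gene (with C1qb and Mrc1). Leaving out each array in turn gave 1 to 2 calls. None was called lower under any alternative. The median log2 fold change of the 10 genes was 0.15 to 0.27 over the alternatives. Calls over all probe sets, 1211 as reported, were 608 with the replicate block, 294 on the unprimed D arrays, 686 by the ANOVA after adjustment, 780 by the ANOVA at an unadjusted p with 1.5-fold, and 597 to 1010 with 1 array left out. They were 1493 after the further quantile normalization, which added Mrc1 (4.66% of those tested, against 3.78% as reported). Where probe sets were averaged per gene, calls were 1693 of 18121 genes (9.34%), C1qb and Mrc1 among them. Each of these 2 genes has 1 probe set, so their log2 fold changes stayed at 0.823 and 0.325. What differed there was the set of features fitted and adjusted over. In other settings that added a gene, calls over all probe sets were fewer than as reported. With Mrc1 added, they were 798 without ILK-expressing replicate 2. With C1qb added, they were 909 without ILK-expressing replicate 3 and 1154 with the sample code as a term. The share of higher among called probe sets was 74.3% as reported and 64.8% to 79.7% over the alternatives. C1qb was called under 4 of 22 alternatives and Mrc1 under 3 of 21, with adjusted p values of 0.0224 to 0.243 and 0.0375 to 0.45 over them. Mrc1 was not tested where 50 was asked of all arrays. Cd14 turned to -0.0176 on the unprimed D arrays and Cd68 to 0.00164 without ILK-expressing replicate 3 (range -0.18 to 0.00164 with 1 array left out). Neither was called under any alternative. Values near 5.64 lie close to background, which limits Mrc1, Cd14, C1qa and C1qc. The causes of these shifts were not tested.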

Other observations

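Other leukocytes of skin were read from further lists. Of 10 tested T cell genes, 2 rose in ILK-deficient epidermis and none fell. Higher genes made up 20% of the T cell list and 11.1% each of the mast cell and keratinocyte lists below. Among all probe sets, 2.81% were higher and 0.97% lower. Icos, a costimulatory receptor of activated T cells, was at 7.51 in ILK-deficient and 6.98 in ILK-expressing epidermis (log2 fold change 0.54, adjusted p = 0.0261 from limma), and the other was Thy1. Cd3g and Cd3e, chains of the T cell receptor complex, were at 0.23 (adjusted p = 0.889) and 0.18 (adjusted p = 0.871). Of 9 tested mast cell genes, Gata2, a transcription factor of mast cells and other blood cells, rose by 0.38 (adjusted p = 0.0143), while Kit, shared with melanocytes, was at 0.71 (adjusted p = 0.113) and Ms4a2, a chain of the IgE receptor, at -0.16 (adjusted p = 0.427). None of 9 neutrophil genes passed by limma or by the ANOVA. At an unadjusted limma p under 0.05, none was higher and 1 was lower, against 10.2% and 5.65% of all probe sets. S100a9 and Camp, both of neutrophil granules or cytosol and known in keratinocytes too, were at -0.09 (adjusted p = 0.684) and -0.01 (adjusted p = 0.967). None of 4 B cell genes and none of 7 endothelial genes passed by limma or the ANOVA, and none had an unadjusted p under 0.05 by either. Of B cell genes, Cd79b was at -0.01 (adjusted p = 0.985) and Pax5 at 0.04 (adjusted p = 0.862), and of endothelial genes Cd34 was at 0.20 (adjusted p = 0.471) and Emcn at 0.0045 (adjusted p = 0.99). Of 9 tested keratinocyte genes, Trp63, the p63 factor of basal cells, rose by 0.35 (limma, adjusted p = 0.0204). Krt14, a keratin of basal cells, fell by 0.23 (adjusted p = 0.0452), while Krt10 was at -0.04 (adjusted p = 0.858).

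Genes outside the 10 were also ranked by how closely their deviations from the genotype means followed those of the 10 macrophage genes over the 10 arrays. The 10 genes with the highest mean Pearson correlation were Nol9, Mtpn, Rgs19, Snx12, Rab11b, Echdc2, Polr1b, Adssl1, Gga2 and Dph2, at 0.507 to 0.525. This is a description of 10 arrays, in which ILK-deficient replicate 2 and ILK-expressing replicate 3 stand high for most of the macrophage genes, and the correlations with single macrophage genes ran from -0.358 to 0.934.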
